A study of Homo sapiens with 15 samples.

Results

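The 8 human genes examined here encode the sialyltransferases that attach sialic acid to the 6-position of a sugar: ST6GAL1 and ST6GAL2, which act on terminal galactose, and ST6GALNAC1 to ST6GALNAC6, which act on N-acetylgalactosamine. They were followed through 2 histone marks. H3K4me3, trimethylation of lysine 4 of histone H3, marks promoters in use, and H3K27ac, acetylation of lysine 27, marks active promoters and enhancers. A peak of H3K4me3 was taken as a member when it lay within 2 kb of an annotated transcript start of one of the genes. A peak of H3K27ac was taken when it lay within 100 kb and the nearest protein-coding start was that of a listed gene. Of 22572 H3K4me3 peaks this rule chose 6, and of 62195 H3K27ac peaks it chose 24; 6 of the 8 genes had at least 1 such member peak.

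Chromatin immunoprecipitation sequencing was compared in 3 lines of one origin. Par is the parental MDA-MB-231 line, a triple-negative, claudin-low human breast cancer line. LM2 and BrM2 are sub-populations of it that were selected in mice for colonization of the lung and of the brain, respectively. Each line and mark had 2 libraries, 12 in all, from cells without further treatment that had been cultured for 3 days in medium with 10% serum and fixed in 1% formaldehyde for 10 min, per the labels; 3 input samples had no counts and were not used here. Each line is one selected population, so a difference between lines is a difference between these populations.

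Sialic acids cap the glycans of glycoproteins and glycolipids on the cell surface, and each sialyltransferase is specific for a linkage and an acceptor. ST6GAL1 makes the alpha-2,6 cap of N-glycans. ST6GALNAC1 and ST6GALNAC2 act mainly on O-glycans (mucin-type chains). ST6GALNAC3 to ST6GALNAC6 act mainly on acceptors that already carry a sialic acid, among them gangliosides, which are sialylated glycolipids abundant in brain. ST6GALNAC5, a ganglioside enzyme mostly confined to brain in healthy tissue, is known from work on breast cancer cells that enter the brain.

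The ST6GALNAC5 promoter peak did not lie at the start of the full-length gene. The gene spans chr1:77333165-77533231 (hg19, plus strand), and no H3K4me3 peak was found within 2 kb of its first base. The member peak, chr1:77460922-77462320, covered the first exon of a shorter GENCODE transcript that starts at position 77461142, within an intron of the longer transcripts. The 250 bases before the full-length start of ST6GALNAC5, which carried no peak, and before the RefSeq start of ST6GAL1, whose promoter peak was called, are given on the plus strand of GRCh37, 5′ to 3′. Capitals mark matches to the motifs that were searched on both strands: the GC box GGGCGG, the TATA box TATAAA, the CCAAT box CCAAT, the AP-1 motif TGANTCA and the RUNX motif TGTGGT.
ST6GALNAC5 full-length start, chr1:77332915-77333164: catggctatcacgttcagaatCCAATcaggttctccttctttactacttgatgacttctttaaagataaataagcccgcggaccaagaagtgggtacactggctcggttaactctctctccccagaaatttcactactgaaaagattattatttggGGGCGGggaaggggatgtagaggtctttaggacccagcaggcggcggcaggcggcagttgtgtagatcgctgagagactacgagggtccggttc
ST6GAL1 start, chr3:186648065-186648314: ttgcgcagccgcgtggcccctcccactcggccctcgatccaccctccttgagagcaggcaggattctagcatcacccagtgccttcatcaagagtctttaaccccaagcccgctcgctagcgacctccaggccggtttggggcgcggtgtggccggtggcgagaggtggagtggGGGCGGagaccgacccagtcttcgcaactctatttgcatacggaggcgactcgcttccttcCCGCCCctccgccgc
The sequences differed in CG dinucleotides, which are dense in most promoters marked by H3K4me3. With the 50 bases after the start included, the full-length ST6GALNAC5 window held 14 CG dinucleotides and the ST6GAL1 window 24, against a median of 14 over 34796 RefSeq windows of the same length (GRCh38.p14). The ST6GALNAC5 window held a GC box and a CCAAT box, and the ST6GAL1 window 2 GC boxes. These motifs are common: 44.9% of all windows held the GC box, 34.6% the CCAAT box, 13.1% the RUNX motif, 11.6% the TATA box and 7.73% the AP-1 motif. Most of the ST6GALNAC5 promoter peak lies past the internal start, and it reaches 1.18 kb beyond it.

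Depth limited what could be resolved. Reads in peaks per library ranged from 3489607 to 9839629 for H3K4me3 and from 1994996 to 6450028 for H3K27ac, and in each line replicate 2 was the deeper H3K4me3 library and replicate 1 the deeper H3K27ac library. Levels are given as CPM, counts scaled to the same total of reads in peaks of the mark, and as CPM per kb of peak where one gene is set against another. Fold changes are log2 values from DESeq2 with their standard error, and a peak was called at an adjusted p under 0.05 over all peaks of the mark. As a check of the cell type, all 6 epithelial and all 4 mesenchymal marker genes had a promoter peak, with CDH1 (E-cadherin) at 4.51 CPM per kb, at the 31.8 percentile of all H3K4me3 peaks; PTPRC, CD3E, PECAM1, CDH5 and SOX10, which define leukocytes, endothelium and glia, had none, and GFAP had one at 2.75 CPM per kb. Of the 6 epithelial markers, 1 was called: ESR1, the oestrogen receptor gene that this line is classed as lacking, was higher in LM2 (log2 2.52 ± 0.42, adjusted p = 1.06e-06) and in BrM2 (1.62 ± 0.43, adjusted p = 0.00686). The differences of the epithelial markers went both ways. With the replicate number as a block, 2 were called higher and 1 lower in LM2, and 2 higher and 0 lower in BrM2. GATA3 stood at -1.004 in LM2 (adjusted p = 0.538, with the block 0.00666). EPCAM stood at 0.65 in LM2 (adjusted p = 0.718, with the block 0.0239) and at 0.98 in BrM2 (adjusted p = 0.149, with the block 0.000238). The median difference of the 6 markers from Par was 0.09 in LM2 and 0.38 in BrM2. In it the 1 promoter peak that KRT8 and KRT18 share counts for each gene. Of the 4 mesenchymal markers, 0 were called against Par without the block. With it 0 were called in LM2, and 2 higher and 1 lower in BrM2. These were AXL (0.57, adjusted p = 5.52e-07), CD44 (0.32, adjusted p = 0.04) and ZEB1 (-0.35, adjusted p = 0.00278). Over all H3K4me3 peaks the block called 14.4% in LM2 and 17.7% in BrM2 against Par.

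Against Par, H3K4me3 was higher at ST6GAL1 in both metastatic lines and at ST6GALNAC5 in BrM2. In LM2 1 of 6 member peaks was called, in BrM2 2 of 6, and between BrM2 and LM2 1 of 6, and each of these was higher in the line named first. Over all H3K4me3 peaks tested, 2.51% were called for LM2 against Par, 3.61% for BrM2 against Par and 3.18% for BrM2 against LM2. The 2 comparisons with Par share the Par libraries and are not independent of each other.

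**Figure D1:**
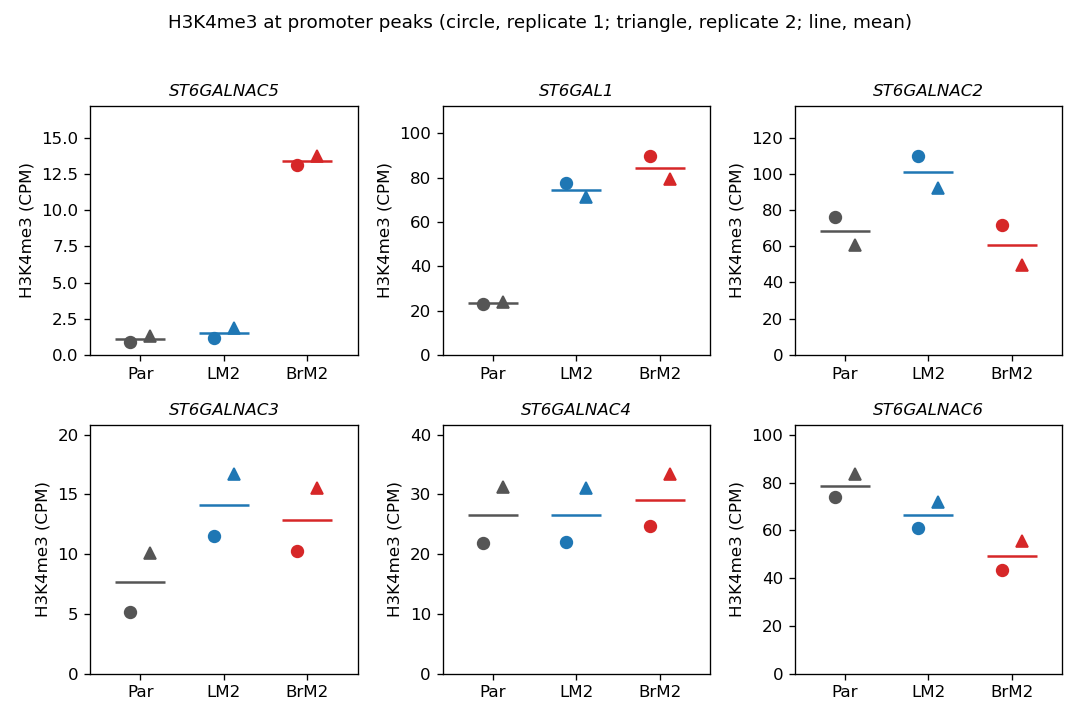
H3K4me3 (CPM) at the promoter peak of 6 sialyltransferase genes in Par, LM2 and BrM2; circles are replicate 1, triangles replicate 2 and horizontal lines the mean, and each panel has its own axis from 0. The 2 BrM2 libraries stand at 13.1 and 13.8 CPM for ST6GALNAC5 with the other 4 libraries below 2 CPM, while for ST6GAL1 both LM2 and BrM2 stand above Par.

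At ST6GALNAC5, H3K4me3 was 0.860 and 1.34 CPM in Par, 1.15 and 1.83 CPM in LM2, and 13.1 and 13.8 CPM in BrM2. These levels stand for 3 and 9 reads in the Par libraries, 5 and 18 reads for LM2, and 60 and 111 reads for BrM2. The Par and LM2 levels thus rest on few reads. The peak was called on the merged libraries of all lines, and most of its reads came from BrM2. Its selection was thus not independent of a high level in BrM2. Both BrM2 libraries lay far above all 4 others, and Par and LM2 overlapped. BrM2 exceeded Par by log2 3.53 ± 0.69 (11.6-fold, adjusted p = 4.75e-05) and LM2 by 3.07 ± 0.63 (8.41-fold, adjusted p = 0.000127). The difference of LM2 from Par was 0.46 ± 0.76 (adjusted p = 1), with a 95% interval from -1.03 to 1.94. The BrM2 call against Par was kept when any 1 library was left out, with adjusted p up to 0.0475; that against LM2 was not kept without BrM2 replicate 1 (3.00, adjusted p = 0.0771) or BrM2 replicate 2 (3.20, adjusted p = 0.0574). Per length, the peak stood at the 1.44 percentile of 13982 promoter peaks in Par, at the 2.21 percentile in LM2 and at the 18.9 percentile in BrM2, so that it remained below most promoters in BrM2 too. The 3 other H3K4me3 peaks within 500 kb had a median log2 difference between BrM2 and Par of 0.09, and none was called.

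ST6GAL1 had 22.9 and 24.0 CPM of H3K4me3 in Par, 77.6 and 71.3 CPM in LM2, and 89.9 and 79.3 CPM in BrM2. Both metastatic lines lay above Par with no overlap, as LM2 did at 19.1% and BrM2 at 21.4% of all H3K4me3 peaks. LM2 exceeded Par by log2 1.71 ± 0.36 (3.28-fold, adjusted p = 0.000283) and BrM2 exceeded Par by 1.80 ± 0.36 (3.48-fold, adjusted p = 6.22e-05). BrM2 and LM2 differed by 0.09 ± 0.35 (adjusted p = 0.992), with a 95% interval from -0.59 to 0.77. The peak, chr3:186647863-186650208, covered the start of the gene at position 186648114, and per length it moved from the 21.8 percentile of promoter peaks in Par to the 68.2 percentile in LM2 and the 77.8 percentile in BrM2. The call in LM2 was lost without Par replicate 2 (1.59, adjusted p = 0.114) or LM2 replicate 1 (1.45, adjusted p = 0.087), while that in BrM2 was kept without any 1 library. The 12 other H3K4me3 peaks within 500 kb had median log2 differences of -0.21 in LM2 and 0.20 in BrM2.

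The ganglioside and O-glycan enzymes other than ST6GALNAC5 were not called by DESeq2 in the fit of cell line alone (0 of 4 peaks in each comparison, with 0, 1 and 1 at an unadjusted p under 0.05 for LM2 against Par, BrM2 against Par and BrM2 against LM2, and 0 by edgeR). Because replicates of the same number deviated together in every line, the values with the replicate number as a block are given where they change a call; with it, 14.4%, 17.7% and 22.0% of all H3K4me3 peaks were called in the 3 comparisons in the order above, against 2 of 6, 3 of 6 and 3 of 6 member peaks.

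ST6GALNAC2, an O-glycan enzyme, had 76.2 and 60.5 CPM in Par, 109.9 and 92.2 CPM in LM2, and 71.8 and 49.7 CPM in BrM2 at chr17:74580768-74582883. Its LM2 libraries were the highest of the 6. The log2 difference was 0.60 ± 0.39 for LM2 against Par (adjusted p = 0.878) and -0.83 ± 0.39 for BrM2 against LM2 (adjusted p = 0.385), and with the block these were 0.60 (adjusted p = 0.000544) and -0.85 (adjusted p = 8.21e-08).

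ST6GALNAC6, an enzyme of gangliosides and other glycolipids in many tissues, had 73.9 and 83.4 CPM in Par, 61.0 and 72.0 CPM in LM2, and 43.2 and 55.6 CPM in BrM2 at chr9:130660010-130662401, a peak that also covers a start of the gene ENSG00000257524. Like that of ST6GALNAC5, this peak lies at a start within the gene, whose first base on the minus strand is chr9:130667687. Both BrM2 libraries lay below the other 4. BrM2 differed from Par by -0.74 ± 0.32 (adjusted p = 0.259; with the block -0.73, adjusted p = 8.08e-05) and from LM2 by -0.53 ± 0.32 (adjusted p = 0.607; with the block -0.52, adjusted p = 0.00746). Most of the neighbourhood was lower in BrM2, with a median over the surrounding 5 Mb of -0.49 against Par and -0.61 against LM2. Of the 41 other H3K4me3 peaks within 500 kb, 7 had a positive difference of BrM2 from Par. With the 5 Mb medians removed the adjusted p was 1 in both comparisons and the sign against LM2 turned, to 0.08.

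ST6GALNAC4, on the same stretch of chromosome 9, had 21.8 and 31.3 CPM in Par, 22.0 and 31.0 CPM in LM2, and 24.7 and 33.3 CPM in BrM2 at chr9:130678049-130679784. The 3 lines overlapped throughout. BrM2 differed from Par by 0.07 ± 0.36 (adjusted p = 0.996), with a 95% interval from -0.64 to 0.78, beside the surrounding median of -0.49.

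ST6GALNAC3 had 5.16 and 10.1 CPM in Par, 11.5 and 16.7 CPM in LM2, and 10.3 and 15.5 CPM in BrM2 at chr1:76539537-76541051. In each line replicate 2 was the higher, and DESeq2 called no difference with or without the block (0.90 ± 0.47 for LM2 against Par, adjusted p = 0.61). edgeR with the block called LM2 against Par (0.86, adjusted p = 0.00721).

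Set in order by CPM per kb in Par, the promoters ran from ST6GALNAC6 (32.9) and ST6GALNAC2 (32.3) through ST6GALNAC4 (15.3), ST6GAL1 (10.0) and ST6GALNAC3 (5.04) to ST6GALNAC5 (0.786). In BrM2 the order began with ST6GAL1 (36.1) and ST6GALNAC2 (28.7), followed by ST6GALNAC6 (20.7), ST6GALNAC4 (16.7), ST6GALNAC5 (9.60) and ST6GALNAC3 (8.50). Neighbours whose libraries overlapped were ST6GALNAC6 and ST6GALNAC2 in Par, and in BrM2 ST6GAL1 and ST6GALNAC2, ST6GALNAC6 and ST6GALNAC4, and ST6GALNAC5 and ST6GALNAC3. ST6GALNAC5 thus stood beside ST6GALNAC3 in BrM2 and under it in Par. ST6GALNAC1, an O-glycan enzyme, and ST6GAL2, a galactose enzyme with a narrow tissue range, had no member peak of either mark: the nearest H3K4me3 peak lay 27365 bp from a start of ST6GALNAC1 and 247447 bp from a start of ST6GAL2, and the nearest H3K27ac peak 23667 bp and 630840 bp away. Because peaks were called on the merged libraries of all lines, no library had a count for these 2 promoters. The distance limits cut off little: the furthest H3K27ac member lay 46729 bp from its start, and the nearest H3K4me3 peak outside the limit, 10843 bp from a start of ST6GALNAC3, had a mean of at most 1.11 CPM in any line.

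H3K27ac gave 24 member peaks: 9 at ST6GAL1, 8 at ST6GALNAC5, 2 each at ST6GALNAC2, ST6GALNAC3 and ST6GALNAC6, and 1 at ST6GALNAC4. In BrM2 against Par, 6 peaks of ST6GAL1 and 1 peak of ST6GALNAC5 rose. Of the members that passed the filter on low counts, 1 of 19 was called in LM2 against Par, 7 of 20 in BrM2 against Par and 0 of 18 in BrM2 against LM2, all of them higher; over all peaks tested 3.63%, 5.29% and 2.94% were called. Beside the 0 of DESeq2 for BrM2 against LM2, 8 of the 24 had an unadjusted p under 0.05 and edgeR called 3, with 3.89% of all peaks. With the replicate block, 5.44%, 8.13% and 6.17% of all peaks were called, against 1, 7 and 3 member peaks. The median log2 difference between BrM2 and Par was 0.99 over the 24 members and -0.02 over all 62195 peaks.

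**Figure D2:**
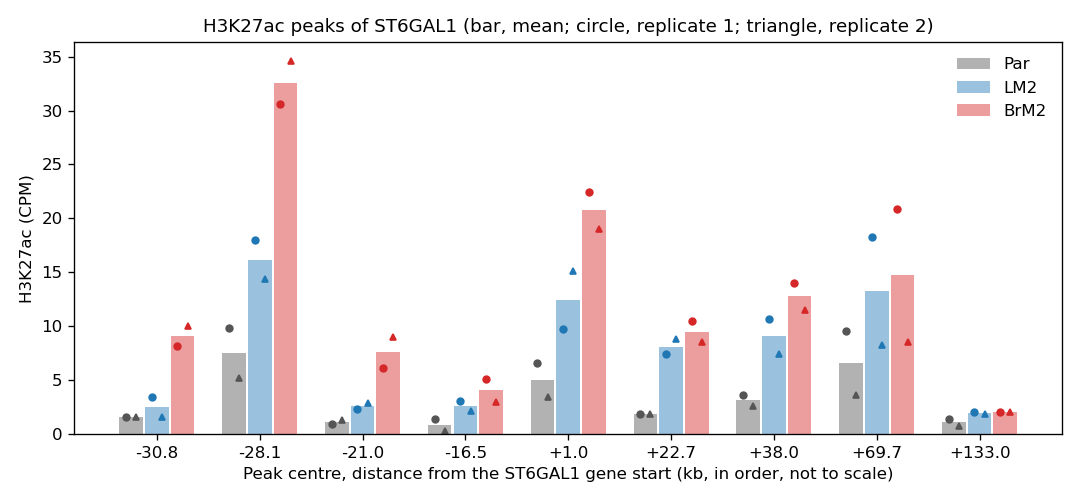
H3K27ac (CPM) at the 9 peaks of ST6GAL1 in Par, LM2 and BrM2, ordered by the distance of the peak centre from the gene start in kb (order only, not to scale); bars are means, circles replicate 1 and triangles replicate 2. At all 9 peaks the mean is higher in LM2 than in Par and higher in BrM2 than in LM2, and the tallest BrM2 bar is the peak 28.1 kb before the start.

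At ST6GAL1 all 9 H3K27ac peaks had a higher fitted level than Par in both LM2 (median log2 1.17) and BrM2 (median 2.11). Summed over the 9 peaks, which cover 12881 bp, H3K27ac was 36.7 and 20.6 CPM in Par, 75.0 and 62.5 CPM in LM2, and 119.8 and 106 CPM in BrM2. The 3 lines did not overlap in this sum. In BrM2 6 of the 9 were called, and in LM2 1 of the 9. The 22 other H3K27ac peaks within 500 kb had a median of 0.30 in LM2 and 0.58 in BrM2, and removal of the median over 5 Mb ended none of the 6 calls.

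The peak over the gene start, chr3:186648041-186650125, had 6.61 and 3.39 CPM in Par, 9.77 and 15.2 CPM in LM2, and 22.4 and 19.1 CPM in BrM2. Both BrM2 libraries were the highest, and LM2 lay between. BrM2 exceeded Par by log2 2.05 ± 0.48 (4.14-fold, adjusted p = 0.00148), and LM2 differed from Par by 1.23 ± 0.48 (adjusted p = 0.163).

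The peak centred 28.1 kb before the start, chr3:186618856-186621205, carried the most H3K27ac of the locus in BrM2, with 9.81 and 5.22 CPM in Par, 18.0 and 14.4 CPM in LM2, and 30.6 and 34.6 CPM in BrM2. The 3 lines formed separate steps. BrM2 exceeded Par by 2.11 ± 0.41 (4.30-fold, adjusted p = 5.34e-05), a call that no left-out library ended, and LM2 by 1.07 ± 0.39 (adjusted p = 0.119; with the block 1.08, adjusted p = 0.0444).

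Of the other upstream peaks, that centred 30.8 kb before the start (chr3:186616813-186617788) had 1.596 and 1.57 CPM in Par, 3.41 and 1.596 CPM in LM2, and 8.16 and 10.0 CPM in BrM2, with BrM2 above Par by 2.52 ± 0.72 (adjusted p = 0.0142). That 21.0 kb before the start (chr3:186626843-186627441) had 0.912 and 1.31 CPM in Par, 2.33 and 2.93 CPM in LM2, and 6.12 and 9.02 CPM in BrM2, with BrM2 above Par by 2.76 ± 0.79 (adjusted p = 0.0142). At both, LM2 lay nearer to Par than to BrM2.

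Within the gene, the peak 22.7 kb past the start (chr3:186670224-186671463, intronic) had 1.82 and 1.83 CPM in Par, 7.44 and 8.78 CPM in LM2, and 10.5 and 8.52 CPM in BrM2. It was the 1 H3K27ac member peak that DESeq2 called in LM2 as well (2.08 ± 0.62, adjusted p = 0.0266), beside 2.39 ± 0.63 in BrM2 (adjusted p = 0.00575), and its LM2 and BrM2 libraries overlapped. The intronic peak 38.0 kb past the start (chr3:186684928-186687357) had 3.65 and 2.61 CPM in Par, 10.7 and 7.45 CPM in LM2, and 14.0 and 11.5 CPM in BrM2, and exceeded Par by 2.04 ± 0.55 in BrM2 (adjusted p = 0.00749); edgeR called it in LM2 too (1.48, adjusted p = 0.0404).

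The remaining 3 peaks of ST6GAL1 had log2 differences of BrM2 from Par between 0.90 and 2.31 and were not called by DESeq2. edgeR called 1 of them, at chr3:186631303, in BrM2 against Par (2.28, adjusted p = 0.0434). In that comparison edgeR called 8 of the 24 members, beside 6.88% of all peaks. In BrM2 against Par the DESeq2 count over the 24 members was 2 without Par replicate 1, 1 without Par replicate 2, 1 without BrM2 replicate 1 and 2 without BrM2 replicate 2, and 6 without either LM2 library. In LM2 against Par it fell from 1 to 0 without any 1 library.

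**Figure D3:**
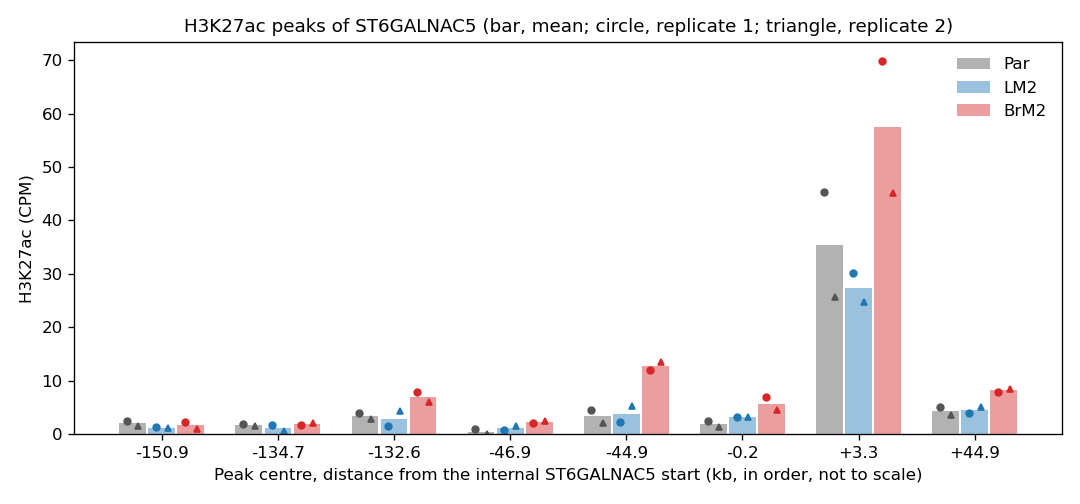
H3K27ac (CPM) at the 8 peaks of ST6GALNAC5, ordered by the distance of the peak centre in kb from the internal start (order only, not to scale); bars are means, circles replicate 1 and triangles replicate 2. The peak 3.29 kb past the start is the tallest in every line, with 45.4 and 25.6 CPM already in Par, and the called peak lies 44.9 kb before the start.

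Summed over the 8 peaks of ST6GALNAC5, which cover 10062 bp, H3K27ac was 66.6 and 38.6 CPM in Par, 44.8 and 45.7 CPM in LM2, and 111 and 83.2 CPM in BrM2. Both BrM2 sums lay above the other 4, and LM2 lay within the range of Par. The fitted difference of BrM2 from Par was positive at 7 of 8 peaks (median log2 0.99), that of BrM2 from LM2 at 8 of 8 (median 0.98) and that of LM2 from Par at 3 of 8 (median -0.18).

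The called peak, chr1:77415717-77416857, is intronic and centred 44.9 kb before the internal start. It had 4.56 and 2.09 CPM in Par, 2.17 and 5.32 CPM in LM2, and 11.98 and 13.5 CPM in BrM2, with both BrM2 libraries above all others. BrM2 exceeded Par by 1.93 ± 0.62 (3.80-fold, adjusted p = 0.0374) and LM2 by 1.88 ± 0.60 (adjusted p = 0.0574; with the block 1.90, adjusted p = 0.0337). The call against Par was lost when any 1 of the 6 libraries was left out, with adjusted p between 0.0613 and 0.416.

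The broad intronic peak just past the internal start, chr1:77462311-77466552, begins within the end of the H3K4me3 peak and is described for its size, having been picked out after its values were seen. It had 45.4 and 25.6 CPM in Par, 30.1 and 24.7 CPM in LM2, and 69.8 and 45.1 CPM in BrM2, and BrM2 replicate 2 lay beside Par replicate 1. BrM2 differed from LM2 by 1.14 ± 0.36 (adjusted p = 0.0516; with the block 1.12, adjusted p = 0.00199) and from Par by 0.71 ± 0.36 (adjusted p = 0.317).

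The small peak over the internal start, chr1:77460733-77461219, had 2.51 and 1.31 CPM in Par, 3.26 and 3.19 CPM in LM2, and 6.88 and 4.51 CPM in BrM2. Both BrM2 libraries were the highest, with a difference from Par of 1.595 ± 0.74 (adjusted p = 0.246). The other 5 peaks had means of at most 8.21 CPM in any line, and their differences of BrM2 from Par ran from -0.24 to 2.26 with none called, 3 of them being too low to be tested.

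Acetylation around the gene moved in the same direction. The 18 H3K27ac peaks within 500 kb that belong to other genes had a median log2 difference of 0.72 between BrM2 and Par, 16 of 18 were positive and 1 was called. With the H3K27ac median over 5 Mb (0.43) removed, the called peak stood at 1.49 (adjusted p = 0.208). The H3K4me3 median over 5 Mb was smaller (0.06), and with it removed the H3K4me3 peak of ST6GALNAC5 stood at 3.47 (adjusted p = 6.37e-05).

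**Figure D4:**
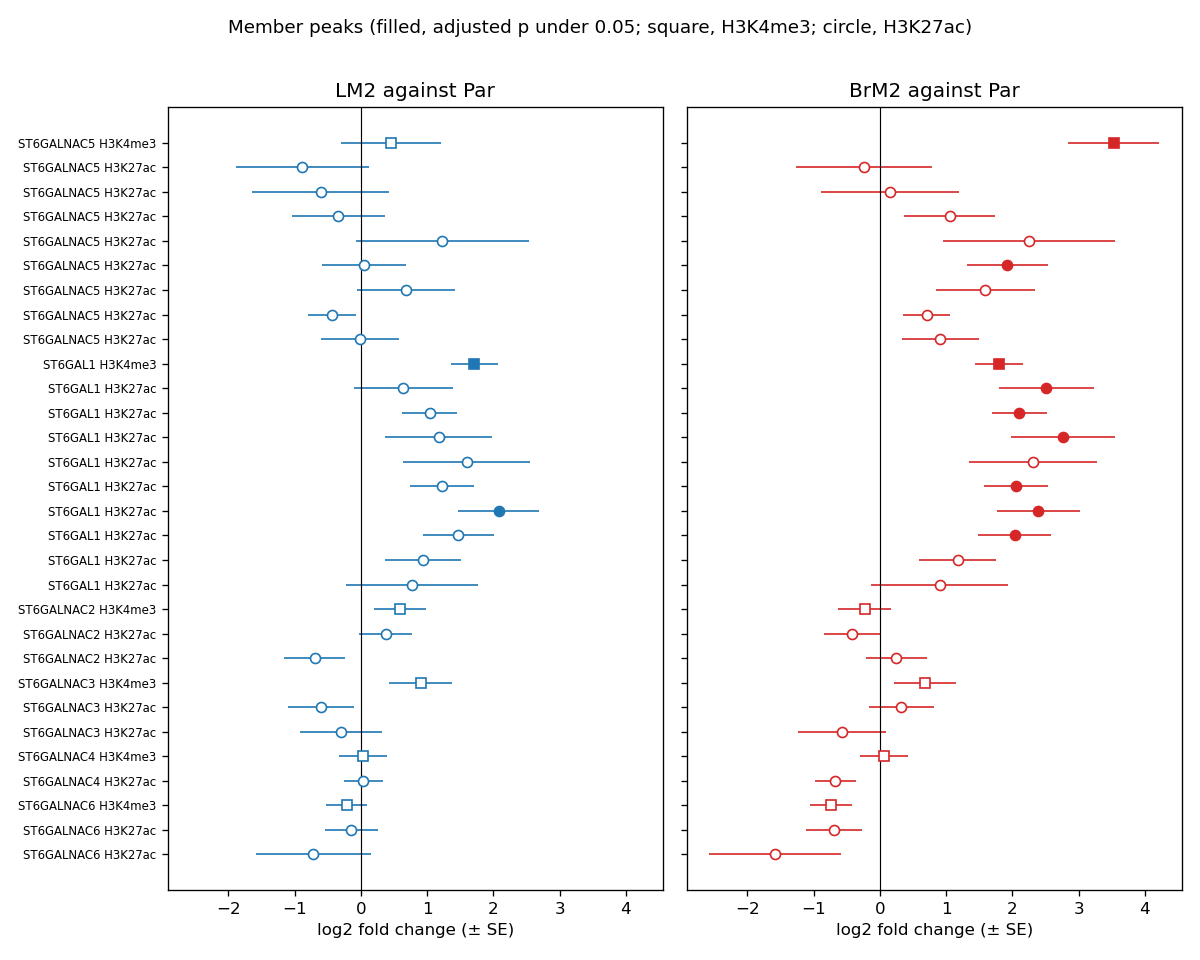
Log2 fold change with its standard error at the 30 member peaks, LM2 against Par on the left and BrM2 against Par on the right, on a common axis; squares are H3K4me3, circles H3K27ac, and filled symbols have an adjusted p under 0.05. ST6GAL1 lies above 0 at every peak in both panels, ST6GALNAC5 H3K4me3 is called in BrM2 only of the 2 panels, and the ST6GALNAC6 peaks lie below 0.

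At the other genes 0 of 7 H3K27ac peaks were called by DESeq2 in the 3 comparisons, with or without the block, and 0 by edgeR without it (with it, edgeR called 0 in LM2 against Par, 1 in BrM2 against Par and 2 in BrM2 against LM2); at an unadjusted p under 0.05 there were 0, 1 and 2 in the order LM2 against Par, BrM2 against Par and BrM2 against LM2. The start peak of ST6GALNAC2, chr17:74580976-74582679, had 17.8 and 15.7 CPM in Par, 19.2 and 26.3 CPM in LM2, and 15.3 and 9.02 CPM in BrM2, the same order of lines as its H3K4me3, with LM2 highest and BrM2 lowest. The upstream peak of ST6GALNAC2, chr17:74597208-74598806, had the opposite order, with means of 14.5 CPM in Par, 9.24 CPM in LM2 and 16.8 CPM in BrM2. There edgeR with the block called BrM2 above LM2 (0.92, adjusted p = 0.0296). The start peak of ST6GALNAC3, chr1:76539929-76540987, had 6.84 and 4.70 CPM in Par, 4.81 and 5.05 CPM in LM2, and 5.35 and 2.01 CPM in BrM2, and the lines overlapped.

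On chromosome 9 the start peak of ST6GALNAC6, chr9:130660663-130662575, had 17.8 and 31.1 CPM in Par, 21.7 and 24.5 CPM in LM2, and 11.2 and 19.5 CPM in BrM2. The domain over the start of ST6GALNAC4, chr9:130678355-130689881, which is 11527 bp long and also covers a start of PIP5KL1, had 53.6 and 81.7 CPM in Par, 78.3 and 67.0 CPM in LM2, and 42.3 and 42.6 CPM in BrM2. Both BrM2 values of that domain lay below the other 4 libraries, by -0.67 ± 0.31 against Par (adjusted p = 0.243), beside a median of -0.67 over the 63 other H3K27ac peaks within 500 kb. The remaining peaks, 1 each at ST6GALNAC2, ST6GALNAC3 and ST6GALNAC6, differed between BrM2 and Par by 0.25, 0.33 and -1.58.

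Few promoters of the genes that work with these enzymes were called, and few of all H3K4me3 peaks were. Over all H3K4me3 peaks tested, DESeq2 called 2.51% for LM2 against Par, 3.61% for BrM2 against Par and 3.18% for BrM2 against LM2. With the block these shares were 14.4%, 17.7% and 22.0%. Of 12 other sialyltransferases (the ST3GAL and ST8SIA families), 9 had a promoter H3K4me3 peak and 0 were called by DESeq2 or edgeR in any of the 3 comparisons, nor did any have an unadjusted p under 0.05. With the block, ST8SIA1, the GD3 synthase, was lower in BrM2 than in Par (-0.59, adjusted p = 0.0478), and ST3GAL1 (0.45, adjusted p = 0.00047) and ST3GAL6 (0.33, adjusted p = 0.029) were higher in BrM2 than in LM2. Of 5 genes that make and carry the sialic acid donor, 5 had a peak and 0 were called by either tool or at an unadjusted p under 0.05; with the block NANS, the sialic acid synthase, was lower in BrM2 than in LM2 (-0.42, adjusted p = 0.0442). Of 4 sialidases, which remove sialic acid, 2 had a peak and 0 were called by either tool, with the block in DESeq2, or at an unadjusted p under 0.05. Of 9 genes that build the acceptor glycans, 9 had a peak and 1 was called, in LM2 against Par: B4GALNT1, which makes the GM2 and GD2 gangliosides, had 18.6 and 21.0 CPM in Par, 44.5 and 46.5 CPM in LM2, and 30.8 and 35.2 CPM in BrM2. Its LM2 libraries were the highest and exceeded Par by 1.24 ± 0.35 (adjusted p = 0.024). With the block, 2 of the 9 were higher and 3 lower in BrM2 than in Par, beside 8.55% and 9.11% of all H3K4me3 peaks. Against LM2, 1 was higher and 4 lower in BrM2, beside 8.99% and 13.0%. The medians of the 4 lists in BrM2 against Par ran from -0.25 to -0.05, beside -0.02 over all H3K4me3 peaks.

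The genes whose promoter H3K4me3 ran most like that of ST6GALNAC5 were found by the Euclidean distance of centred log2(CPM + 1) values over the 6 libraries. They were ADAMTS1 (distance 0.378), TCF4 (0.406), CDH12 (0.442), TUBA3C (0.444) and BRSK1 (0.543). ADAMTS1 had 15.8 and 19.2 CPM in Par, 19.3 and 29.9 CPM in LM2, and 136 and 113 CPM in BrM2, the same pattern at a higher level. TCF4, CDH12 and TUBA3C had no reads in either Par library. Because peaks were called on the merged libraries of all lines, these peaks were listed almost only through BrM2 reads. Their pattern of high BrM2 levels was thus in part fixed by how peaks were chosen. With a pseudocount of 0.1, 1 of the 5, ADAMTS1, stayed on the list, so for genes this low the likeness rests on the pseudocount.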

How the data were processed

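H3K4me3 and H3K27ac chromatin immunoprecipitation was sequenced in Par, LM2 and BrM2, with 2 biological replicates each. Per the labels and file headers, the authors trimmed reads with Trimmomatic 0.32, aligned them to hg19 with Bowtie2 2.3.4.3, filtered them with Picard 2.18.21 and SAMtools, called broad peaks with MACS2 2.1.2 on the merged libraries of a mark, and counted reads, extended by 150 bases at the 3′ end, with featureCounts 1.6.0. The deposited values are raw counts per peak; a peak had to be found in the merge to be counted. CPM is a count over the library's total in peaks of that mark, a scaling that cannot see a change of the mark over the whole genome.

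Starts were taken from GENCODE 44 on GRCh37. Each mark was fitted over all peaks and its 6 libraries with DESeq2 1.42.0 (line as the term, Wald test, default filtering, Benjamini-Hochberg, adjusted p under 0.05); an adjusted p given as missing was left so. Replicate numbers paired the libraries: deviations from line means correlated at 0.632 to 0.683 for H3K4me3 and 0.245 to 0.32 for H3K27ac, so fits with the number as a block were also made. The labels name no batch. Replicate number also went with depth in every line, and what libraries of the same number share was not tested. edgeR 4.0.16 (quasi-likelihood), other filters and scalings, and each library left out were alternatives. With 2 libraries a line, the spread rests on 3 residual degrees of freedom shared over lines. Replicates of a line differed by more than sampling noise (chi-square per degree of freedom 2.12 to 12.3). Fits were run on simulated counts without replicate pairing, with changes set only at better covered peaks. That run does not cover peaks as low as the ST6GALNAC5 H3K4me3 peak. Members and lists were chosen with earlier results of these data known. Described with every library were promoter peaks, H3K27ac peaks over a start and called peaks; from each other list, called promoter peaks with the smallest adjusted p, at most 3. Genes most like ST6GALNAC5 were the 5 nearest. Calculations used R 4.3.3 and Python 3.11.15. Inputs were not used.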

Additional observations from a re-analysis of the deposited data

Results flagged for a closer look

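The H3K4me3 peak at the internal start of ST6GALNAC5 differed between the 2 metastatic lines themselves: BrM2 exceeded LM2 by log2 3.07 in the direct comparison. The difference of LM2 from Par was 0.46, with a 95% interval from -1.03 to 1.94. Both BrM2 libraries lay above both LM2 libraries, a separation that 19.5% of all H3K4me3 peaks had. The LM2 libraries held 5 and 18 reads at this peak. Without BrM2 replicate 1 the difference was 3.00 and without BrM2 replicate 2 it was 3.20, and the call was not kept, as given above.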

How the results depend on the processing

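Calls at small peaks depended on the filter for low counts. With at least 10 counts required in every library, the ST6GALNAC5 H3K4me3 peak was not tested. It had 3 and 9 reads in Par and 5 reads in LM2 replicate 1. Member calls for H3K4me3 then became 1 in BrM2 against Par and 0 in BrM2 against LM2. Those for H3K27ac became 0 in LM2 against Par and 3 in BrM2 against Par. With the gene's first base as its only start, the H3K4me3 peaks of ST6GALNAC5 and ST6GALNAC6 were no members, leaving 1 H3K4me3 call in BrM2 against Par and 0 in BrM2 against LM2. The replicate block gave 2 H3K4me3 calls in LM2 against Par, 3 in BrM2 against LM2 and 3 H3K27ac calls in BrM2 against LM2, and changed the call of no other member peak than those given with it above. edgeR gave 2 H3K27ac calls in LM2 against Par, where it called 5.14% of all peaks, and 3 in BrM2 against LM2, where it called 3.89%. edgeR with the block gave 3 and 3 H3K4me3 calls in LM2 against Par and BrM2 against LM2, and 5, 12 and 8 H3K27ac calls in LM2 against Par, BrM2 against Par and BrM2 against LM2, 1 of the 12 and 1 of the 8 being lower; over all peaks it called 26.2% to 38.6% for H3K4me3 and 12.5% to 15.9% for H3K27ac. Removal of chromosome medians gave 1 H3K27ac call in BrM2 against LM2. With single libraries left out, calls ranged from 0 to 1 (H3K4me3, LM2 against Par), 2 to 2 (BrM2 against Par) and 0 to 1 (BrM2 against LM2), and for H3K27ac from 0 to 0, 1 to 6 and 0 to 1. The cause of these changes was not tested, apart from the fewer peaks or libraries that a filter or an omission leaves. No difference that DESeq2 called at the peaks described reversed direction under any alternative run (0 of 161 values), whereas among the uncalled differences 26 of 575 values changed sign, to a size of at most 0.71. TMM factors, filtering turned off and a limit of 50 kb changed no count by over 1.5 times.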
